A study of Homo sapiens with 14 samples.

Results

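The genes described here belong to the nuclear part of the mitochondrial respiratory chain and ATP synthase. They were chosen by symbol among protein-coding genes: NDUFA, NDUFB, NDUFC, NDUFS and NDUFV names without the NDUFAF assembly factors, SDHA to SDHD, and names starting UQCR, COX4 to COX8 or ATP5. By its symbol CYC1, also nuclear and of complex III, fell outside the rule and is counted with the electron carriers below. The inhibitor ATP5IF1 fell inside it. The rule gave 90 of the 62757 genes counted, with 38 in complex I, 4 in complex II, 9 in complex III, 19 in complex IV and 20 in complex V. NDUFA4 and its paralog NDUFA4L2 were placed with complex IV, where the NDUFA4 protein is now known to sit. RNA was sequenced from 2 human ovarian cancer cell lines, OVCAR3 and A2780, in 14 libraries that form 7 groups of 2. OVCAR3 and A2780 each came as WT, the parent, and as DDP, a short form of cisplatin that marks the derivative resistant to it. The other groups carry the label OVCAR3-DDP together with a short hairpin RNA: shNC, taken as the hairpin control, or sh1 or sh2, both labelled shADAR1. ADAR1, encoded by ADAR, is an enzyme that edits adenosine to inosine where RNA is paired, and the study asked what its editing contributes to resistance; editing cannot be read from gene counts and was not analysed here. All 3 hairpin groups therefore share the resistant OVCAR3 background given by the label, and the labels do not say whether a derivative is a clone or a pool. Whether the replicates were grown separately is not stated either, and the spread behind the p-values may be technical.

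The respiratory chain passes electrons from NADH (complex I) and succinate (complex II) through ubiquinone to complex III, then through cytochrome c to complex IV, where oxygen is reduced. Complexes I, III and IV pump protons across the inner mitochondrial membrane, and ATP synthase, complex V, uses the gradient to make ATP. Complex II is encoded wholly in the nucleus, while the others combine nuclear subunits with a few encoded by mitochondrial DNA, and several complex IV and ATP synthase subunits exist as alternative isoforms. Promoters of such nuclear genes are known for sites of the transcription factors NRF1, GABP (of the ETS family) and YY1.

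The windows from 250 bases before to 50 after each gene's start were taken from RefSeq (GRCh38.p14) for the 71 members that had an entry. The ETS motif CCGGAAG, searched on both strands like the others, stood in 21 of these windows (29.6%), against 16.5% of 15843 protein-coding genes. The NRF1 motif, GCGCA and GCGC with any 1 base between them, stood in 17 (23.9%, against 9.67%), the YY1 motif AAGATGGCG in 9 (12.7%, against 3.21%), and TATAAA in 7 (9.86%, against 12.4%). Over all 35116 windows of that length the shares were 10.3%, 5.78%, 1.75% and 11.5% in the same order. The 250 bases upstream of the RefSeq start of 4 members are printed 5′ to 3′. GENCODE 29 starts each of these genes further upstream. Part of each stretch, and all of that for NDUFS3, therefore lies within the GENCODE span of the gene. These genes carry changes described below, and a stretch was printed only where it held a motif. UQCRQ, NDUFS3 and ATP5MK were among the largest falls in the libraries labelled OVCAR3-DDP, and SDHD was 1 of the 2 members that rose under the ADAR1 hairpins. NDUFC2, NDUFS6 and ATP5F1E, also among the largest falls, gave no motif match and are not printed. The 4 stretches therefore do not show how often changed genes carry a motif. Capitals mark ETS motifs and, in SDHD, also the NRF1 motif, which comes first.
UQCRQ (chr5:132866392-132866641, plus strand): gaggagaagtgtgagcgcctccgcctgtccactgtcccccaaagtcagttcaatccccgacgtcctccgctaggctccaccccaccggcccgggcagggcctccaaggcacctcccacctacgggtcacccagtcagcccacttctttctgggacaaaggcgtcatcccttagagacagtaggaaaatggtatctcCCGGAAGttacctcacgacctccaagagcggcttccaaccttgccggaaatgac
NDUFS3 (chr11:47578824-47579073, plus strand): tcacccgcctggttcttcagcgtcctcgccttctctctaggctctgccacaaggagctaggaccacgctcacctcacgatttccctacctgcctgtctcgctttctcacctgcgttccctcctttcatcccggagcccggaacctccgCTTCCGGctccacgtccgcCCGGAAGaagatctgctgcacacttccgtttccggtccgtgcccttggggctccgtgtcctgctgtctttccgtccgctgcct
ATP5MK (chr10:103396476-103396725, minus strand): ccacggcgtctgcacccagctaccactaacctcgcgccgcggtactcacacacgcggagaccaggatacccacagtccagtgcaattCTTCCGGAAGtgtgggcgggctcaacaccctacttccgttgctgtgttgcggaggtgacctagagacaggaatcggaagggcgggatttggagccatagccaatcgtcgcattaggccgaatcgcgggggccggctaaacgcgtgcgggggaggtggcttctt
SDHD (chr11:112086623-112086872, plus strand): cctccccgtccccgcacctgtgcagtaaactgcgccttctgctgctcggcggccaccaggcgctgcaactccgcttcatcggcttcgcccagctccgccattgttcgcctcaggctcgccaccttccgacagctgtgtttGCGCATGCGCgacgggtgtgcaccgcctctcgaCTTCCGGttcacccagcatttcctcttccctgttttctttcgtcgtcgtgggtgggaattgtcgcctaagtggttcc
UQCRQ has 1 ETS motif in the printed stretch, NDUFS3 has 2 on opposite strands, and in ATP5MK 2 motifs on opposite strands overlap. SDHD carries both motifs. A match describes letters in the window and does not show that a factor was bound.

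Between 20428538 and 49115255 reads per library fell on genes, and levels are given as CPM, a gene's count scaled to a common total of such reads. A CPM value is a share of a library's RNA, so fewer cells of a type and less RNA per cell cannot be told apart. The targeted gene ADAR stood at 423 CPM in shNC, 272 CPM in sh1 and 115 CPM in sh2, lower with both hairpins as their labels imply (mean of the hairpins against shNC: log2 −1.35, SE 0.09). The libraries labelled OVCAR3-DDP stood apart from the other OVCAR3 groups. The summed level of 11 epithelial and ovarian carcinoma markers was 3932 to 4329 CPM in parental OVCAR3 and 4838 to 5144 CPM in shNC, but 539 to 575 CPM under the OVCAR3-DDP label, where KRT7, KRT19, PAX8, MUC16 and FOLR1 were under 0.5 CPM. CDH1 was under 0.5 CPM in both of these groups and in shNC, and WT1 went the other way, from 0 CPM in parental OVCAR3 to a mean of 19.0 CPM under the OVCAR3-DDP label. Parental A2780 held 198 to 205 CPM of the list with 7 of the 11 markers under 0.5 CPM. The summed level of 9 neural markers was 2.82 to 2.93 CPM in parental OVCAR3, 9.20 to 9.96 CPM in shNC and 433 to 442 CPM under the OVCAR3-DDP label, with ELAVL3, ELAVL4 and STMN2 under 0.5 CPM there. The neural list was also higher in A2780-DDP, 169 to 213 CPM against 21.4 to 21.8 CPM in parental A2780, and KIF1A led it in both derivatives (means of 214 and 166 CPM). The part of these shifts in the members' changes was not tested. Results on OVCAR3-DDP below therefore describe the untransduced libraries with that label, and shNC is set against the parent separately. Messenger RNA encoded by mitochondrial DNA took 2.31% to 3.51% of assigned counts where no hairpin was present and 0.726% to 0.947% where one was, and reads with more than 1 alignment were 2.36% to 3.22% and 4.64% to 4.99%. At least 48.7% of reads fell on no gene in each library, and the sources used here give no strand setting for the counting.

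Together the 90 genes took at most 1.02% of the counts of a library. Their share was 0.869% and 0.827% in parental OVCAR3, 0.738% and 0.739% in the libraries labelled OVCAR3-DDP, and 0.628% and 0.677% in shNC. Parental A2780 gave 0.850% and 0.900%, and A2780-DDP the 2 highest shares of the series, 1.02% and 0.905%. The sh1 libraries gave 0.629% and 0.634% and the sh2 libraries 0.649% and 0.666%, next to or inside the shNC range. Levels between genes were compared per kilobase of the shortest principal transcript in GENCODE 29. By that scale the most abundant member of complex II was SDHB, the iron-sulfur subunit, in all 7 groups, with 83.3 CPM per kilobase in parental OVCAR3. UQCRH, the hinge protein of complex III, led there in all 7 groups (333 CPM per kilobase in parental OVCAR3), COX4I1 led in complex IV (405 CPM per kilobase), and ATP5F1B, the catalytic beta subunit, led in complex V (434 CPM per kilobase). NDUFS5 led complex I in 6 of 7 groups, with 331 CPM per kilobase in parental OVCAR3, and NDUFB10 led in the libraries labelled OVCAR3-DDP, with 185 CPM per kilobase. These leaders were the same with the longest principal transcript as the length.

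Not all 90 genes were expressed. The tissue-restricted isoforms COX4I2, COX6A2, COX7B2 and COX8C, the ATP5MG copy ATP5MGL and the readthrough gene NDUFC2-KCTD14 were too low to be tested in any fit, and COX6A2 and NDUFC2-KCTD14 had 0 counts in all 14 libraries. NDUFC2-KCTD14 shares its whole exon length with other genes, so reads on it may not have been assigned. In the fit of parental and DDP libraries 84 members passed the filter on low counts, and 82 passed in the fit of the hairpin libraries, where NDUFA7 and COX7A1 also dropped out. At least 10% of the exon length was shared with another gene in 35 members, and 50 have a named pseudogene, so their counts depend on how shared reads were assigned. The plot of members by library shows those with a group mean of at least 5 CPM.

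**Figure D1:**
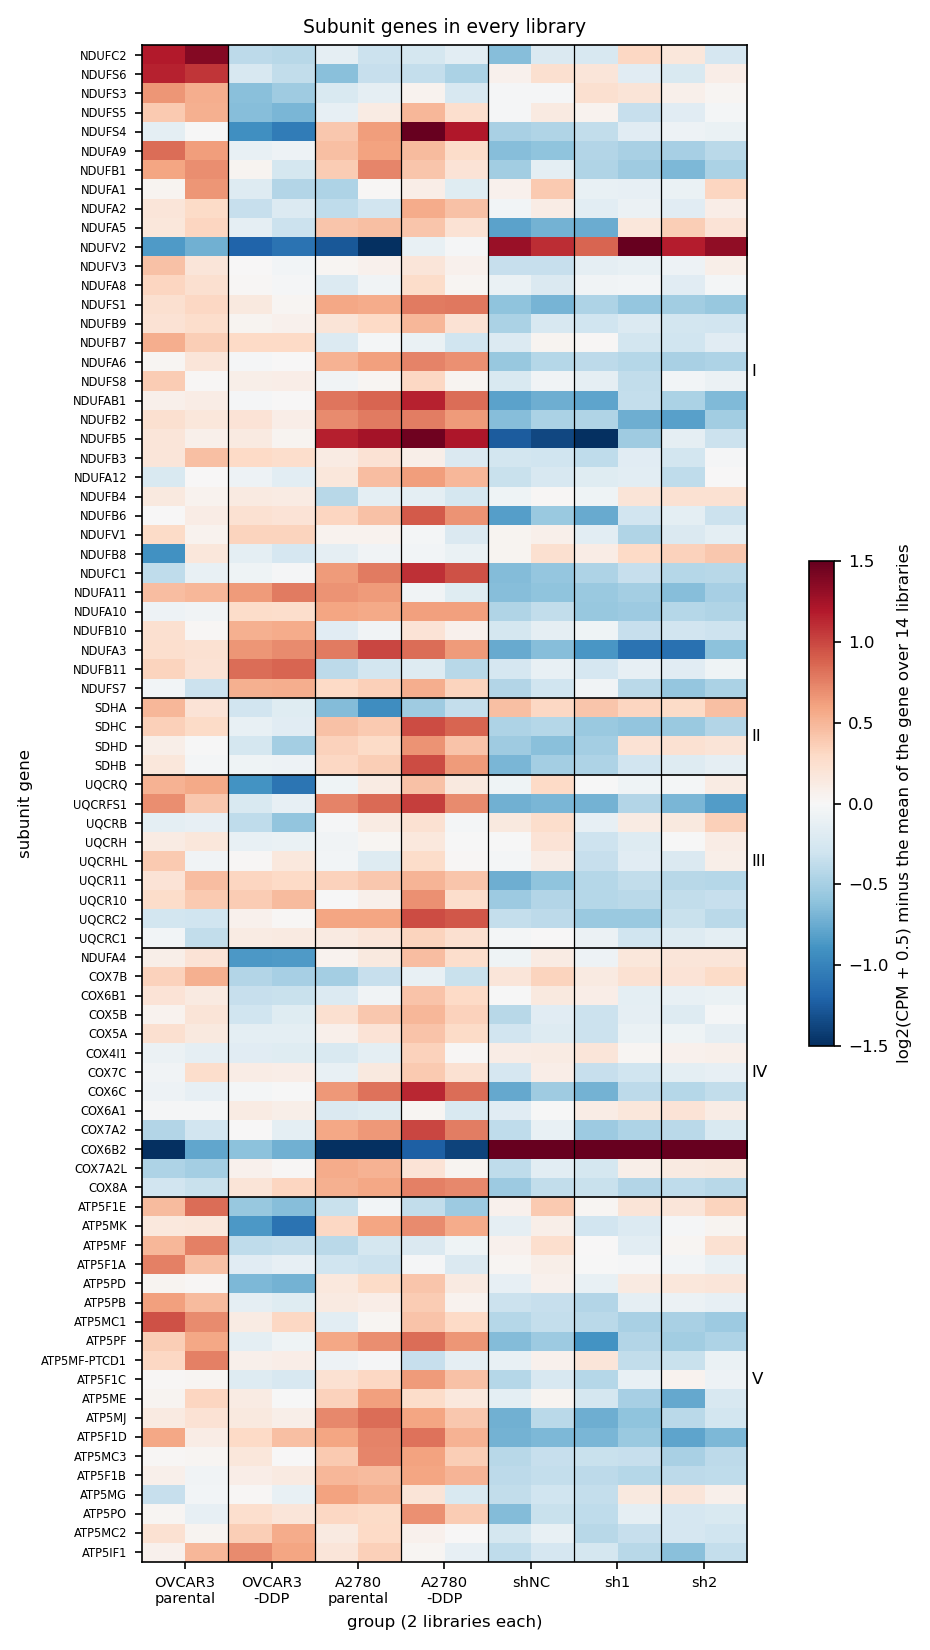
Level of the members with a group mean of at least 5 CPM in the 14 libraries, as log2(CPM + 0.5) minus the mean of that gene over all libraries; columns are libraries in pairs by group, rows are genes by complex (I to V at the right), sorted by the change in OVCAR3-DDP. The color scale ends at 1.5 in each direction. UQCRQ, NDUFS4 and NDUFA4 are lowest in the libraries labelled OVCAR3-DDP, and COX6B2 and NDUFV2 are highest in the hairpin libraries.

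The first comparison asked how the resistant derivative of OVCAR3 differs from its parent. In the libraries labelled OVCAR3-DDP 42 of the 84 tested members were lower and 5 were higher, by edgeR's quasi-likelihood test at an adjusted p under 0.05. Over all 23031 genes tested 35.2% were lower and 33.4% were higher, so the members' share of falls lay above that of all genes and their share of rises below it. Their changes were small. The median log2 fold change was −0.30 against −0.03 over all genes, the median size of change was 0.38 against 0.95, and 13 members changed at least 2-fold (15.5%, against 43.7% of all genes). By complex, 18 of 37 complex I members were lower and 2 higher, 4 of 4 in complex II were lower, 4 of 9 in complex III were lower, 5 of 15 in complex IV were lower and 3 higher, and 11 of 19 in complex V were lower. Fold changes come from fits that scale libraries by TMM, and CPM values from the total, so the ratio of 2 CPM values can differ from the fold change beside them. Scaling by the total instead moved the median of all genes by 0.15 and that of the members to −0.12, and gave 14 higher and 35 lower members, against 8740 higher and 6985 lower over all genes. Scaling by the upper quartile moved the median of all genes by 0.10 and that of the members to −0.17, and gave 12 higher and 36 lower, and without parental replicate 1 there were 8 higher. Complex I had 6 higher and 13 lower members with the total and 5 and 14 with the upper quartile. Of the 47 called members 7 lost their call under at least 1 alternative: ATP5MJ, NDUFA6, NDUFAB1, NDUFB7, NDUFB9, NDUFS1 and SDHB.

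**Figure D2:**
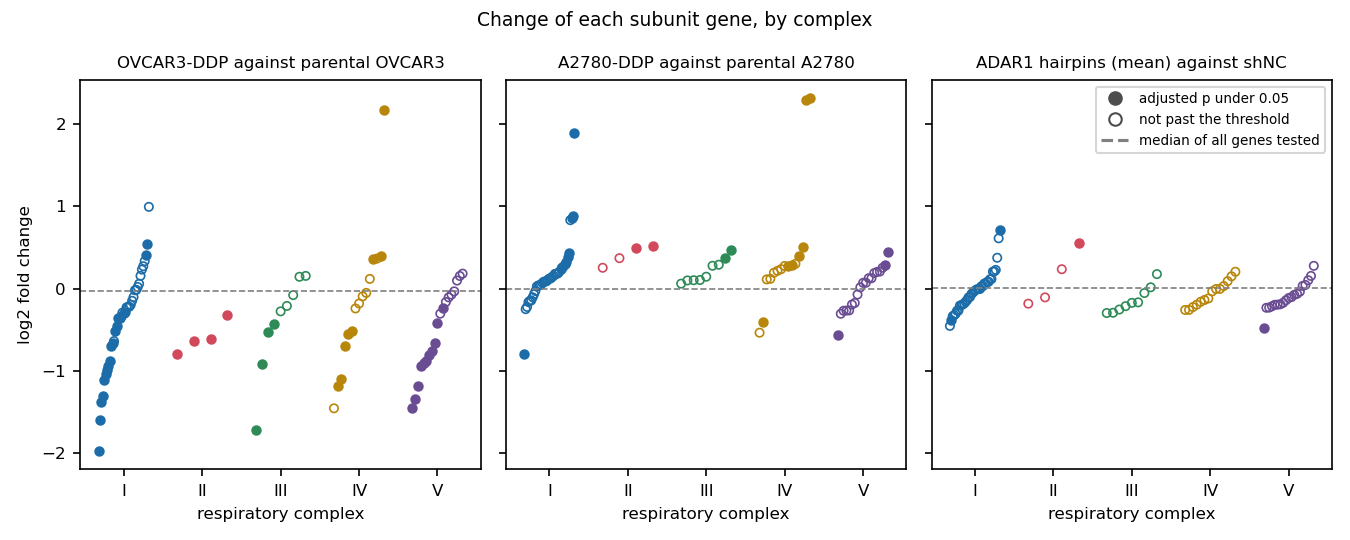
Log2 fold change of every tested member, by complex, in 3 comparisons; each point is 1 gene, filled where the edgeR adjusted p is under 0.05, and the dashed line is the median of all genes tested. In the left panel most filled points lie below the line, in the middle panel most lie above it, and in the right panel 4 points are filled.

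Complex I is the NADH dehydrogenase, whose peripheral arm carries the flavin and the iron-sulfur clusters and whose membrane arm pumps protons. NDUFC2, an accessory subunit of the membrane arm (ENSG00000151366.13; chromosome 11, 78068304 to 78080219, minus strand of GRCh38 in GENCODE 29), had 13.9 and 15.8 CPM in the parental libraries and 4.28 and 4.21 CPM under the OVCAR3-DDP label (log2 −1.98, SE 0.17; edgeR adjusted p = 2.41e-07). The groups did not overlap, and the lower pair was close to the 3.54 and 4.92 CPM of shNC. NDUFC2 shares 18.1% of its exon length with other genes. NDUFS6, an accessory subunit of the NADH-oxidizing module, had 161 and 151 CPM in the parent and 60.6 and 55.6 CPM under the OVCAR3-DDP label (log2 −1.60, SE 0.11; edgeR adjusted p = 3.65e-08). NDUFS3, a core subunit on the path to ubiquinone whose promoter is printed above, fell from 139 and 128 CPM to 56.2 and 60.1 CPM (log2 −1.38, SE 0.11; edgeR adjusted p = 1.72e-07). For both genes every DDP library lay far below both parental ones. NDUFS5, on the intermembrane-space side, fell from 171 and 189 CPM to 83.4 and 81.0 CPM (log2 −1.31, SE 0.12; edgeR adjusted p = 3.4e-07). NDUFS4, an accessory subunit in which inherited defects cause Leigh syndrome, fell from 26.1 and 28.8 CPM to 15.1 and 13.7 CPM (log2 −1.11, SE 0.14; edgeR adjusted p = 8.69e-06). All 4 accessory subunits with NDUFS or NDUFV names were lower, while in the 13 with NDUFB or NDUFC names 4 were lower and 1 higher. The core subunits were divided: NDUFS3 and NDUFS1 (log2 −0.36) were among those lower, and NDUFS7 was higher. NDUFS7, a core iron-sulfur subunit, had 95.1 and 78.3 CPM in the parent and 142 and 143 CPM under the OVCAR3-DDP label (log2 0.54, SE 0.11; edgeR adjusted p = 0.000866), and 49.1% of its exon length is shared with genes on the opposite strand. NDUFB11, in the membrane arm, rose from 144 and 133 CPM to 204 and 209.6 CPM (log2 0.40, SE 0.10; edgeR adjusted p = 0.00376). It shares 44.85% of its exon length with RBM10 on the opposite strand. NDUFV1, which binds NADH, had 245 and 209 CPM and 253 and 255 CPM and did not pass (log2 −0.02).

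Complex II, succinate dehydrogenase, also serves the citric acid cycle. Under the OVCAR3-DDP label all 4 subunits were lower, with smaller folds than NDUFS4. The flavoprotein SDHA had 28.6 and 23.4 CPM in the parent and 16.4 and 17.6 CPM under the OVCAR3-DDP label (log2 −0.79, SE 0.14; edgeR adjusted p = 0.000261). The membrane anchor SDHC fell from 106 and 101 CPM to 76.4 and 73.7 CPM (log2 −0.64, SE 0.09; edgeR adjusted p = 2.56e-05) and the other anchor, SDHD, from 45.3 and 42.5 CPM to 35.4 and 29.8 CPM (log2 −0.61, SE 0.12; edgeR adjusted p = 0.000394). The groups were separate for each of these genes. The iron-sulfur subunit SDHB had 102 and 89.7 CPM and 87.0 and 86.2 CPM (log2 −0.33, SE 0.12; edgeR adjusted p = 0.0261), and its call was lost under 10 of 14 alternatives, among them each DDP library left out (adjusted p 0.109 both times) and parental replicate 1 left out (0.150).

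Complex III passes electrons from ubiquinol to cytochrome c. Its largest change was in UQCRQ, a small subunit near cytochrome b (ENSG00000164405.11; chromosome 5, 132866560 to 132868031, plus strand), with 129 and 134 CPM in the parent and 48.2 and 41.9 CPM under the OVCAR3-DDP label (log2 −1.73, SE 0.12; edgeR adjusted p = 3.28e-08). Every other group, from 86.1 and 98.2 CPM in parental A2780 to 85.9 and 111 CPM in shNC, lay above the libraries labelled OVCAR3-DDP. UQCRQ shares 20.8% of its exon length with GDF9 on the opposite strand. UQCRFS1, the Rieske iron-sulfur protein, fell from 163 and 133 CPM to 86.0 and 92.4 CPM (log2 −0.91, SE 0.13; edgeR adjusted p = 3.35e-05). UQCRB and the hinge protein UQCRH fell less (log2 −0.53, SE 0.11, and log2 −0.43, SE 0.09). The core proteins UQCRC1 and UQCRC2 did not pass (log2 0.14 and 0.15). UQCRC2 was called higher under 6 of 14 alternatives, DESeq2, all 14 libraries and total-count scaling among them, and UQCRC1 under 3. UQCRHL, a near copy of UQCRH with which it can share reads, had 19.6 and 14.3 CPM and 15.0 and 16.6 CPM and did not pass either (log2 −0.28).

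Complex IV, cytochrome c oxidase, held 3 of the 5 rises and 5 falls. NDUFA4 fell from 126 and 136 CPM to 64.8 and 65.2 CPM (log2 −1.19, SE 0.10; edgeR adjusted p = 2.02e-07). Its paralog NDUFA4L2, known as a target of hypoxia signalling, rose from 0.279 and 0.875 CPM to 2.78 and 3.34 CPM (log2 2.17, SE 0.40; edgeR adjusted p = 0.000301). The rise rests on few reads, since NDUFA4L2 stayed under 5 CPM in every group. COX7B, a small subunit, fell from 93.04 and 106 CPM to 53.6 and 51.8 CPM (log2 −1.10, SE 0.11; edgeR adjusted p = 1.19e-06) and COX6B1, which faces the cytochrome c side, from 128 and 122 CPM to 87.3 and 87.6 CPM (log2 −0.69, SE 0.10; edgeR adjusted p = 2.94e-05). COX5A and COX5B were lower as well (log2 −0.52, SE 0.10, and log2 −0.55, SE 0.10). COX8A rose from 46.4 and 44.9 CPM to 64.7 and 70.7 CPM (log2 0.39, SE 0.09; edgeR adjusted p = 0.00216), and COX7A2L, a factor of supercomplex assembly, from 80.4 and 78.2 CPM to 117 and 112 CPM (log2 0.35, SE 0.09; edgeR adjusted p = 0.0037). COX8A shares 34.5% of its exon length with another gene. COX4I1, COX6A1, COX6C, COX7A2 and COX7C did not pass, with log2 fold changes between −0.24 and 0.12. Of the alternative isoforms COX6B2 (0.976 and 2.00 CPM and 2.29 and 2.09 CPM) and COX7A1 (0.307 and 0.204 CPM and 0.174 and 0.0290 CPM) did not pass.

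In ATP synthase 0 of 19 members were higher by edgeR, also 0 at an unadjusted p under 0.05 and 0 by DESeq2 or limma-voom, but 2 with upper-quartile or total-count scaling. ATP5F1A, the alpha subunit of the F1 head, fell from 848 and 683 CPM to 447 and 458 CPM (log2 −0.94, SE 0.11; edgeR adjusted p = 7.26e-06), while its partner in the head, the beta subunit ATP5F1B, had 834 and 763 CPM and 847 and 870.5 CPM and did not pass (log2 −0.07). The epsilon subunit ATP5F1E fell from 104 and 134 CPM to 50.4 and 47.8 CPM (log2 −1.46, SE 0.13; edgeR adjusted p = 5.04e-07). ATP5MK, a small membrane subunit also called DAPIT, fell from 60.3 and 60.6 CPM to 29.4 and 24.8 CPM (log2 −1.34, SE 0.12; edgeR adjusted p = 4.51e-07), and ATP5MF, the f subunit, from 82.9 and 99.6 CPM to 44.9 and 45.9 CPM (log2 −1.19, SE 0.11; edgeR adjusted p = 5.1e-07). The readthrough gene ATP5MF-PTCD1, of which 93.8% is shared with other genes, was lower (log2 −0.66, SE 0.17). Of the peripheral stalk, which holds the head still, ATP5PB, ATP5PD and ATP5PF were lower, at log2 −0.88 (SE 0.11), −0.90 (SE 0.11) and −0.76 (SE 0.11), and ATP5PO did not pass (log2 0.10, SE 0.13). The c ring, the rotor, is built from 1 protein encoded by 3 genes. ATP5MC1 fell from 137 and 116 CPM to 76.5 and 87.4 CPM (log2 −0.80, SE 0.12; edgeR adjusted p = 4.97e-05), whereas ATP5MC2 (202 and 178 CPM and 223 and 255 CPM) and ATP5MC3 (139.6 and 140.5 CPM and 156 and 138 CPM) did not pass. ATP5IF1, the inhibitor of ATP hydrolysis by the enzyme, did not pass (log2 0.18); it was called higher under 3 alternatives and ATP5MC2 under 4, both scalings among them.

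**Figure D3:**
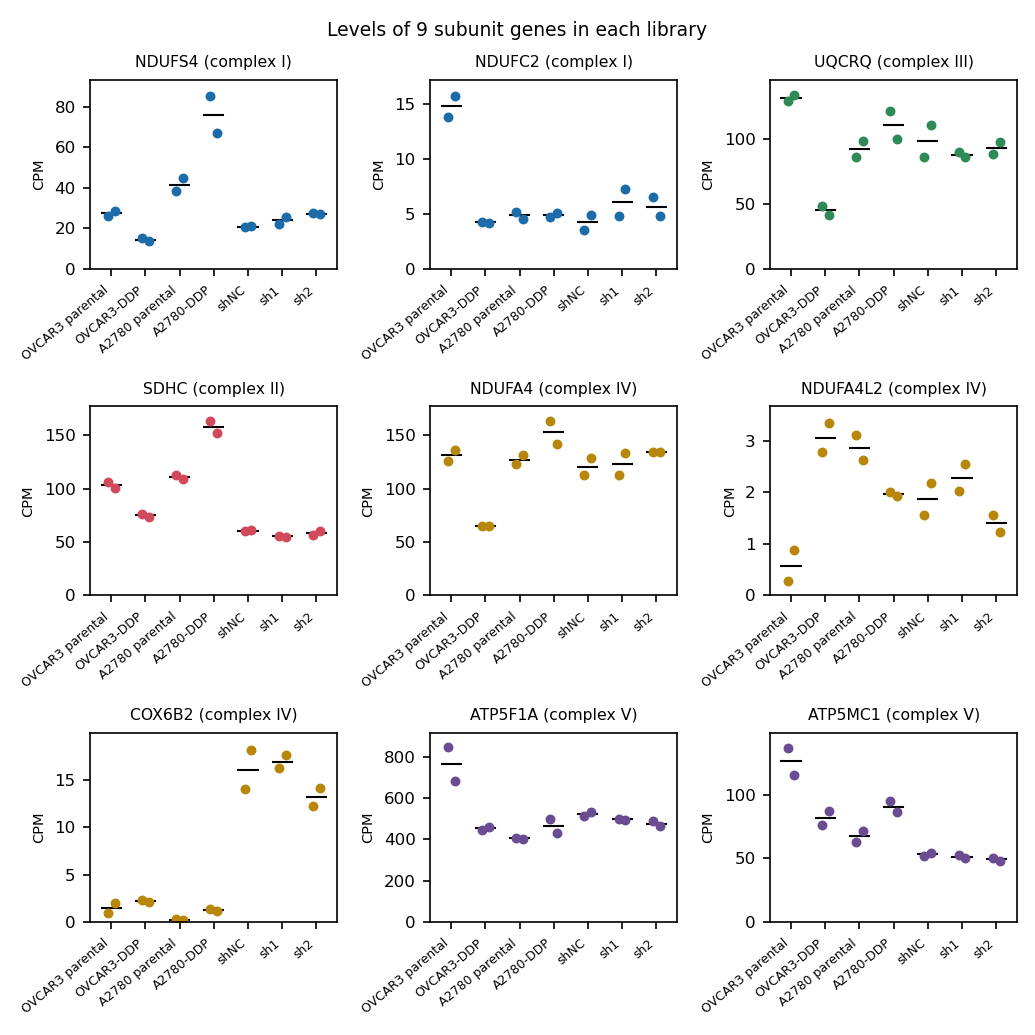
CPM of 9 members in every library; points are libraries, bars the means of the 2 libraries of a group, and each axis starts at 0. UQCRQ and NDUFA4 are lowest in the libraries labelled OVCAR3-DDP. The UQCRQ means of the hairpin groups lie between that level and parental OVCAR3. NDUFC2, SDHC and ATP5MC1 are below parental OVCAR3 in the libraries labelled OVCAR3-DDP and in the hairpin groups.

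Since the hairpin control carries the same resistance label, shNC was set against parental OVCAR3 in a fit of all 14 libraries. There 33 of 84 members were lower and 9 higher, against 26.5% and 25.1% of 24193 genes, and without shNC replicate 2 the count of higher members was 5. Scaling by the total moved the median of all genes by −0.17 and gave 4 higher and 52 lower members. This comparison shares its parental libraries with the one above, so values are given side by side with no measure of their overlap. UQCRQ was at log2 −1.73 in the libraries labelled OVCAR3-DDP and log2 −0.23 (SE 0.13) in shNC, which did not pass. NDUFS5 gave −1.31 and −0.21, NDUFS4 −1.11 and −0.21, NDUFA4 −1.19 and 0.07, COX7B −1.10 and 0.00, and ATP5MK −1.34 and 0.01, with none of these passing in shNC, although UQCRQ, NDUFS5 and NDUFS4 were called lower there with total-count scaling, and UQCRQ also without shNC replicate 2. Other falls were of like size in both. NDUFC2 gave −1.98 and −1.62, NDUFA9 −1.04 and −1.22, UQCRFS1 −0.91 and −1.07, and ATP5MC1 −0.80 and −1.06, all called in shNC. NDUFS6 gave −1.60 and −0.77, NDUFS3 −1.38 and −0.44, and ATP5F1A −0.94 and −0.36, called in shNC but nearer to 0 there; the ATP5F1A call in shNC was lost with the compared groups alone (adjusted p 0.0509), without shNC replicate 1 (0.0659) and without parental replicate 1 (0.208). COX6B1 (−0.69 and 0.09), ATP5F1E (−1.46 and −0.24) and ATP5MF (−1.19 and −0.28) did not pass in shNC, but with total-count scaling or without parental replicate 1 ATP5F1E (adjusted p 0.0104 and 0.0323) and ATP5MF (0.00241 and 0.0256) were called lower, and so was ATP5F1E without shNC replicate 2 (0.044).

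Of the 5 members higher under the OVCAR3-DDP label, COX7A2L (0.35 and 0.41) and NDUFA4L2 (2.17 and 1.82) were also called higher in shNC, COX7A2L not with total-count scaling (adjusted p 0.11) or without shNC replicate 2 (0.128). NDUFS7 (0.54 and 0.00), COX8A (0.39 and 0.04) and NDUFB11 (0.40 and −0.27) did not pass there, with 72.2 and 79.7, 38.7 and 43.7 and 95.7 and 106 CPM in the shNC libraries. NDUFB11 was called lower in shNC by limma-voom (adjusted p 0.0431), with total-count scaling (0.00105) and without parental replicate 2 (0.0328). UQCRB went in opposite directions, log2 −0.53 and 0.53 (0.000911 as edgeR adjusted p in shNC). In complex II SDHB, SDHC and SDHD were lower in shNC (log2 −0.48, −0.58 and −0.44) and SDHA did not pass (0.22). The SDHD call there was lost under 7 of 13 alternatives, with adjusted p from 0.0504 to 0.100. Set directly against the libraries labelled OVCAR3-DDP, shNC had 23 members higher and 23 lower, against 32.9% and 36.8% of all genes, and 14 lower without shNC replicate 1. Scaling by the total moved the median of all genes there by −0.29 and gave 20 higher and 39 lower.

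The 2 largest rises in shNC were in members with uncertain counts. The alternative isoform COX6B2, known from testis, had 0.976 and 2.00 CPM in the parent, 2.29 and 2.09 CPM under the OVCAR3-DDP label and 14.1 and 18.1 CPM in shNC (shNC against parental: log2 3.59, SE 0.25; edgeR adjusted p = 1.71e-11). It was as high in sh1 (16.2 and 17.6 CPM) and sh2 (12.3 and 14.2 CPM). NDUFV2, an iron-sulfur core subunit, had 2.40 and 2.67 CPM in the parent, 1.77 and 1.92 CPM under the OVCAR3-DDP label and 12.3 and 10.7 CPM in shNC (log2 2.37, SE 0.25; edgeR adjusted p = 2e-08). Exon length shared with other genes was 30.9% for COX6B2 and 28.4% for NDUFV2, and the NDUFV2 pseudogene NDUFV2P1 stood at 3.87 CPM in parental OVCAR3 and 3.43 CPM in shNC. The hairpin libraries also differ from all others in mitochondrial messenger RNA and in reads with several alignments, as given above, and the part of either in these rises was not tested.

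The second comparison asked the same of A2780. In A2780-DDP 20 of 84 members were higher (23.8%) and 3 were lower (3.57%), against 18.0% and 17.3% of all genes. Rises were small, with a median log2 fold change of 0.14 against 0.00 over all genes and 3 members changed at least 2-fold (3.57%, against 15.2%). Leaving out 1 library moved that median between 0.07, without A2780-DDP replicate 1, and 0.30, without A2780-DDP replicate 2, and it was 0.26 without parental replicate 2. The count of rises depended on single libraries too: it was 7 without A2780-DDP replicate 1, 31 without A2780-DDP replicate 2 and 7 without parental A2780 replicate 1, and the count of falls was 1 without A2780-DDP replicate 2 or either parental replicate. A2780-DDP replicate 1 lay above replicate 2 in 76 of the 82 members at 1 CPM or more in both, by a median log2 of 0.19. The calls of NDUFV2, NDUFS4, NDUFA2, NDUFA11, SDHC, UQCRC2, COX6B1 and COX6B2 were kept whichever library was left out.

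Of complex I, 8 of 37 members were higher and 1 lower. NDUFS4 rose from 38.4 and 44.8 CPM in parental A2780 to 85.3 and 66.9 CPM in A2780-DDP (log2 0.88, SE 0.13; edgeR adjusted p = 0.000157). NDUFA2, an accessory subunit of the NADH module, rose from 32.1 and 34.1 CPM to 61.7 and 56.9 CPM (log2 0.85, SE 0.10; edgeR adjusted p = 2.8e-05). Both pairs were well apart. NDUFV2 had 1.67 and 0.795 CPM and 4.35 and 4.66 CPM (log2 1.89, SE 0.32; edgeR adjusted p = 0.000476), at a level where few reads decide. NDUFA11, a membrane-arm subunit, fell from 18.5 and 18.0 CPM to 10.9 and 9.97 CPM (log2 −0.79, SE 0.13; edgeR adjusted p = 0.000276). In complex II SDHC rose from 112 and 109 CPM to 163 and 152 CPM (log2 0.52, SE 0.09; edgeR adjusted p = 0.00051) and SDHB from 113 and 118 CPM to 179.8 and 142 CPM (log2 0.49, SE 0.12; edgeR adjusted p = 0.00587). SDHA (12.6 and 10.3 CPM and 13.8 and 15.7 CPM) and SDHD (54.2 and 52.1 CPM and 68.3 and 57.4 CPM) were above their parental values without passing (edgeR adjusted p = 0.0725 and 0.106).

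In complex III UQCRC2, a core protein, rose from 252 and 252 CPM to 328 and 318 CPM (log2 0.37, SE 0.08; edgeR adjusted p = 0.00357) and the small subunit UQCR10 from 48.0 and 50.8 CPM to 77.8 and 58.3 CPM (log2 0.47, SE 0.13; edgeR adjusted p = 0.0107), while UQCRQ did not pass (log2 0.28). UQCR10 lost its call without A2780-DDP replicate 1 (adjusted p 0.104). In complex IV 6 of 15 were higher and 1 lower. COX6B1 rose from 95.8 and 107 CPM to 149 and 137 CPM (log2 0.50, SE 0.10; edgeR adjusted p = 0.00126), and COX4I1 from 264 and 280.1 CPM to 395 and 314 CPM (log2 0.39, SE 0.11; edgeR adjusted p = 0.013). NDUFA4 and COX7A2 rose by log2 0.28 (SE 0.10) and 0.29 (SE 0.10), with edgeR adjusted p = 0.0447 and 0.0495. The NDUFA4 call was lost under 5 and the COX7A2 call under 6 of 14 alternatives, both of them without A2780-DDP replicate 1 (0.222 and 0.264), without parental replicate 1 (0.235 and 0.216), without parental replicate 2 (0.0647 and 0.0851) and with a replicate block (0.0503 and 0.0522). The muscle isoform COX7A1 (0.192 and 0.0917 CPM to 0.666 and 0.762 CPM; log2 2.32) and COX6B2 (0.288 and 0.214 CPM to 1.33 and 1.13 CPM; log2 2.29) were called at levels of about 1 CPM or less, and COX7A1 lost its call whichever library was left out. COX7A2L fell from 164 and 160.2 CPM to 128 and 115 CPM (log2 −0.40, SE 0.09; edgeR adjusted p = 0.00366). In complex V 2 of 19 were higher, ATP5MC1 (63.0 and 71.8 CPM to 95.1 and 86.6 CPM; log2 0.44, SE 0.12; edgeR adjusted p = 0.012) and the gamma subunit ATP5F1C (log2 0.28, SE 0.10). ATP5MG, the g subunit, was lower (log2 −0.57, SE 0.15), with 29.5 and 28.2 CPM against 22.1 and 16.4 CPM. The alpha subunit ATP5F1A did not pass (log2 0.21).

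Whether the 2 lines differed in their change was tested as the OVCAR3 change minus the A2780 change. The difference was below 0 for 48 of 84 members (57.1%) and above 0 for 7 (8.33%), against 26.9% each way over all genes, with a median of −0.51 against −0.01. The count above 0 was 3 without either OVCAR3-DDP library, A2780-DDP replicate 2 or parental A2780 replicate 2. Scaling by the total moved the median of all genes by 0.19 and gave 11 above and 38 below 0. All 4 SDH genes were among the 48, at log2 −1.16 (SE 0.21) for SDHA, −0.81 (SE 0.17) for SDHB, −1.16 (SE 0.13) for SDHC and −0.86 (SE 0.16) for SDHD. For UQCRQ the difference was log2 −2.0 (SE 0.17). In both lines 12 members were called, all in opposite directions: 11 were lower in the libraries labelled OVCAR3-DDP and higher in A2780-DDP, and COX7A2L was the reverse. How many of all genes were called in both lines, or with opposite signs, was not counted, so these numbers have no background beside them. The line difference was called for each of the 12. The 12 had been picked for 2 called changes of opposite sign, so a called difference nearly follows. NDUFS4 differed most among them, −1.11 in OVCAR3 and 0.88 in A2780 (log2 −1.99, SE 0.19; edgeR adjusted p = 1.26e-06), followed by NDUFS5 (−1.31 and 0.38) and NDUFA2 (−0.69 and 0.85). The A2780 side of several of these calls rested on single libraries, as given above. The OVCAR3 side rested on the libraries labelled OVCAR3-DDP, whose markers stood apart from the other OVCAR3 groups. In shNC NDUFS4, NDUFS5, NDUFA4 and COX6B1 did not pass, while ATP5MC1, SDHB and SDHC were lower and COX7A2L higher, as given above. The plot of one line's change against the other's shows the members spread to the upper left.

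**Figure D4:**
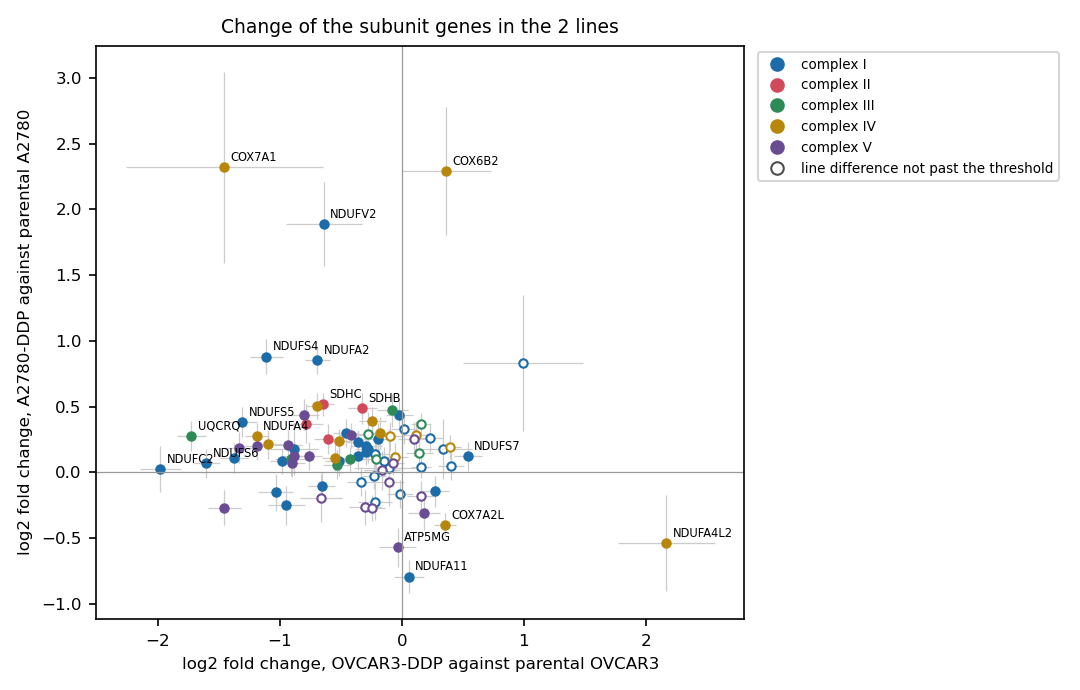
Log2 fold change of each tested member in OVCAR3-DDP against parental OVCAR3 (horizontal) and in A2780-DDP against parental A2780 (vertical), with standard errors as gray lines; color gives the complex and filled points have a line difference with edgeR adjusted p under 0.05. NDUFS4, NDUFS5, NDUFA2 and SDHC lie at the upper left, COX7A2L and NDUFA4L2 at the lower right.

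Between the parental lines 25 of 84 members were higher and 25 lower in OVCAR3 than in A2780 (29.8% each, against 32.3% and 33.7% of all genes). These shares were near those of all genes, with starting levels that differed in both directions. NDUFC2 stood at 13.9 and 15.8 CPM in the OVCAR3 parent and 5.22 and 4.52 CPM in parental A2780 (log2 1.65, SE 0.17), and NDUFS6 at 161 and 151 CPM and 46.5 and 56.5 CPM (log2 1.65, SE 0.11). ATP5F1A stood at 848 and 683 CPM and 408 and 402 CPM (log2 0.97, SE 0.11). In these 3 genes the libraries labelled OVCAR3-DDP, with 4.28 and 4.21, 60.6 and 55.6 and 447 and 458 CPM, lay near the A2780 level. For NDUFB5 the order was the other way, 17.1 and 15.96 CPM in the OVCAR3 parent and 34.5 and 36.5 CPM in parental A2780 (log2 −1.05, SE 0.12). Under the OVCAR3-DDP label NDUFB5 had 16.6 and 15.5 CPM, near its own parent and not near A2780. Nor did COX6B2, among the largest differences between the parents, lie near the A2780 level under that label.

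The third comparison asked what lowering ADAR1 does in the cells labelled OVCAR3-DDP. Against shNC the mean of both hairpins was higher for 2 of 82 members and lower for 2 (2.44% each), against 5.94% and 5.98% of 19044 genes. The median log2 fold change of the members was −0.09 against 0.00 over all genes, and 0 members changed at least 2-fold, against 0.788% of all genes. Scaling by the total moved the median of all genes by 0.09, to 2028 higher and 586 lower genes, and gave 2 higher and 0 lower members with a median of 0.00. NDUFA5, an accessory subunit near the ubiquinone site (ENSG00000128609.16; chromosome 7, 123536997 to 123558255, minus strand), had 18.9 and 20.4 CPM in shNC, 19.8 and 37.9 CPM in sh1 and 43.3 and 38.6 CPM in sh2 (log2 0.71, SE 0.18; edgeR adjusted p = 0.0155). SDHD (ENSG00000204370.13; chromosome 11, 112086773 to 112120013, plus strand) had 29.2 and 27.4 CPM, 29.8 and 49.4 CPM and 49.9 and 48.6 CPM in the same order (log2 0.55, SE 0.15; edgeR adjusted p = 0.0242). In both genes sh1 replicate 1 lay near the shNC libraries and sh1 replicate 2 near or within the sh2 range. NDUFB5, of the membrane arm, showed that split too, with 6.03 and 5.53 CPM in shNC, 3.66 and 10.3 CPM in sh1 and 13.7 and 11.98 CPM in sh2, and passed with sh2 alone (log2 1.04, SE 0.28; edgeR adjusted p = 0.0192). That call was lost with DESeq2 (adjusted p 0.191) and without sh2 replicate 1 or shNC replicate 2. In shNC NDUFB5 was itself below the 17.15 and 15.96 CPM of parental OVCAR3. The lower members were NDUFV1, with 207 and 212 CPM in shNC, 181 and 147 CPM in sh1 and 174 and 182 CPM in sh2 (log2 −0.38, SE 0.10; edgeR adjusted p = 0.0188), and ATP5ME, the e subunit of ATP synthase, with 21.5 and 24.6, 19.8 and 16.8 and 13.8 and 20.1 CPM (log2 −0.48, SE 0.15; edgeR adjusted p = 0.04). ATP5ME shares 61.6% of its exon length with MYL5 on the opposite strand.

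By single hairpin, sh1 had 0 higher and 2 lower members, NDUFV1 and UQCRH, against 1.96% and 1.85% of all genes, and sh2 had 3 higher (NDUFA5, NDUFB5 and SDHD) and 1 lower (ATP5ME), against 7.23% and 7.04%. In sh1, 2 members were higher at an unadjusted p under 0.05, and DESeq2 and limma-voom also gave 0 higher. Without sh1 replicate 1 the sh1 counts were 6 higher and 17 lower, without replicate 2 they included 7 lower, and without either shNC library 0 lower. The sh2 counts were 1 higher without sh2 replicate 1 or shNC replicate 2, and 0 lower without sh2 replicate 1 or either shNC library. With total-count scaling sh1 had 0 lower, and sh2 had 5 higher and 0 lower. UQCRH had 182 and 209.9 CPM in shNC and 146 and 159 CPM in sh1 (log2 −0.44, SE 0.12; edgeR adjusted p = 0.0413). Between sh2 and sh1, which differ in remaining ADAR, 0 members were higher and 0 lower by edgeR, against 0.667% and 1.25%, with 4 higher and 3 lower at an unadjusted p under 0.05 and also 0 each way by DESeq2 and limma-voom. Without sh1 replicate 2 that comparison had 13 higher and 2 lower. The call of NDUFA5 in sh2 held with each library left out and was lost with DESeq2 (adjusted p 0.051). Leaving out either shNC library gave 0 higher and 0 lower members for the mean of the hairpins, leaving out sh1 replicate 1 gave 7 higher and 25 lower, and leaving out sh1 replicate 2 gave 2 and 10. Without sh2 replicate 1 they were 1 and 0, and without sh2 replicate 2 there was 1 lower.

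**Figure D5:**
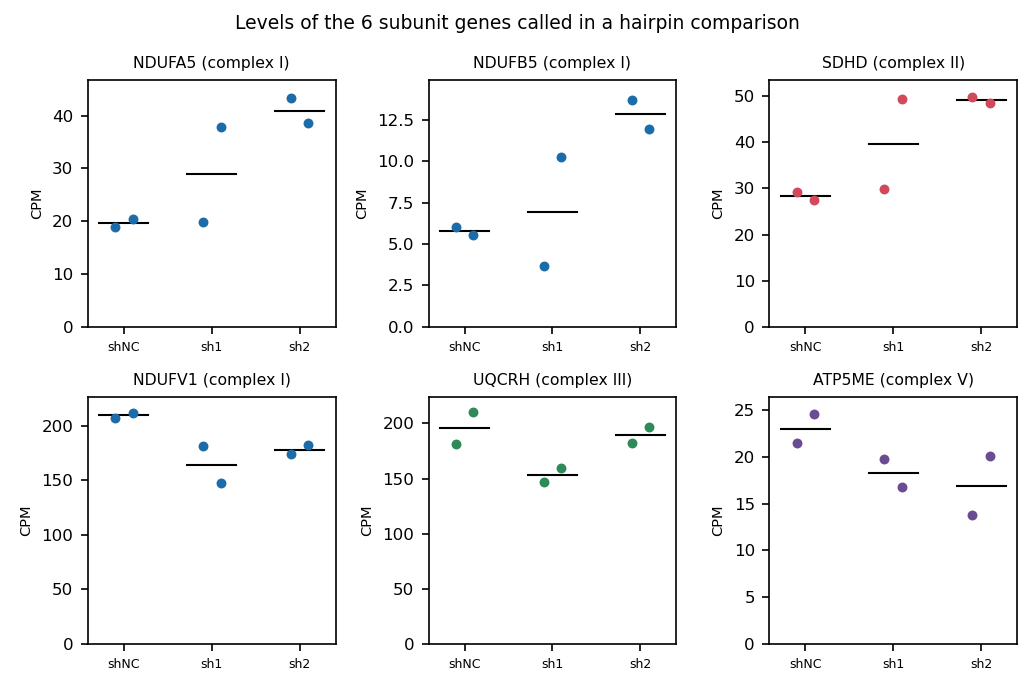
CPM of the 6 members called in the mean of the hairpins, in sh1 or in sh2, against shNC; points are libraries, bars the means of 2, and each axis starts at 0. For NDUFA5, NDUFB5 and SDHD, sh1 replicate 1 is closer to shNC and sh1 replicate 2 closer to sh2.

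Other genes of the pathway were taken from fixed lists. Beside their counts stand the shares of all genes called lower and higher: 35.2% and 33.4% in OVCAR3, 17.3% and 18.0% in A2780, and 5.98% and 5.94% with the hairpins. Of 63 assembly factors, which build the complexes without staying in them, 37 were lower and 8 higher in the libraries labelled OVCAR3-DDP, 10 lower and 7 higher in A2780-DDP, and 0 lower and 7 higher of 61 with the hairpins. With the total as the scale these counts were 31 lower and 14 higher, 10 and 7, and 0 and 14. In OVCAR3 the list for complex IV had 19 of 26 lower, and the complex I factor TMEM126B fell most in its list (log2 −2.41, SE 0.12) while NDUFAF3 rose (log2 1.32, SE 0.10). Cytochrome c itself, CYCS, fell in OVCAR3 (log2 −1.45, SE 0.10), in a list of 19 electron carriers with 12 lower and 1 higher. Of the 13 messenger RNAs that mitochondrial DNA encodes, 8 were lower and 2 higher in the libraries labelled OVCAR3-DDP. In A2780-DDP 11 of the 13 were lower and 1 higher, whereas 20 of the 84 nuclear members were higher and 3 lower. MT-CO3, a core subunit of complex IV, fell there (log2 −1.21, SE 0.09). With the hairpins 6 of the 13 were lower and none higher at the adjusted threshold or at an unadjusted p under 0.05.

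Among 17 regulators of mitochondrial biogenesis, 8 were lower and 6 higher in the libraries labelled OVCAR3-DDP, against 35.2% and 33.4% of all genes. The regulators named here were chosen after their values were seen. They include none of the 6 higher ones and not GABPA, so they do not stand for the list. The coactivator PPARGC1A had a mean of 19.6 CPM in parental OVCAR3, 0.0725 CPM under the OVCAR3-DDP label and 12.7 CPM in shNC. GABPB1, the partner chain of the ETS factor GABPA, was lower in OVCAR3 (log2 −1.31, SE 0.11) and higher with the hairpins (log2 0.63, SE 0.13). TFAM, which packages mitochondrial DNA and starts its transcription, was called in the same directions (log2 −1.29, SE 0.10, and log2 0.62, SE 0.15), and the calls of both genes with the hairpins were lost without either shNC library (adjusted p 0.0679 to 0.123). NRF1 did not pass in either comparison (log2 0.05 and −0.09). Set beside the promoter motifs, 14 of 21 tested members with an ETS motif were lower in OVCAR3 (median log2 −0.43) and 19 of 46 without one (median −0.21). With an NRF1 motif 7 of 16 were lower (median −0.23) and without one 26 of 51 (median −0.29). With TATAAA 4 of 6 were lower (median −0.73) and without it 29 of 61 (median −0.28). For the YY1 motif the counts were 5 of 9 and 28 of 58 (median −0.29 both times). In A2780-DDP 4 of 21 members with an ETS motif were higher and 12 of 46 without one. These are counts beside each other, and the differences were not tested.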

How the data were processed

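Total RNA from 14 libraries was sequenced, and the authors deposited whole-number read counts per gene. Per the submitters' processing notes, FastQC 0.11.9, STAR 2.7.8a, SAMtools, HTSeq 2.0.3 and GRCh38.p13 were used; no source used here gives the annotation release, the strand setting or whether reads were paired. From the deposited counts, 3 models were fitted with edgeR 4.0.16 in R 4.3.3 (quasi-likelihood F test, TMM scaling, filterByExpr with a minimum count of 10): 8 parental and DDP libraries, 6 hairpin libraries, and all 14 for shNC against parental or DDP. P-values were adjusted over all genes tested (Benjamini-Hochberg), with calls at 0.05. HTSeq's rows that name no gene were kept out of library sizes; at least 48.7% of reads fell on no gene. CPM is a count scaled to a common total of assigned counts, with no TMM factor. Alternatives used DESeq2 1.42.0, limma 3.58.1 (voom), other scalings, filters and library sets, and each library left out. The code was tested on simulated data. Replicates differed beyond counting noise (chi-square per gene 3.88 to 31.5), so none was counted as a repeat of another.

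Members and lists were chosen with earlier results of these data known. Named were, per complex, up to 3 called members with the largest rise and 3 with the largest fall in each main comparison, all isoforms and copies, the SDH genes and ATP5IF1. Other names, among them the 12 members called in both lines, the roles' remaining subunits, the regulators and the members that lost a call, were chosen after their values were seen. The single-gene result of 1 member is not reported here, and it is left out of the plot of levels by library, while counts include it. Coordinates and lengths came from GENCODE 29 (GRCh38), promoters from RefSeq (GRCh38.p14).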

Additional observations from a re-analysis of the deposited data

Results flagged for a closer look

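The change from parental to DDP libraries differed between the 2 lines, by the contrast of the OVCAR3 change minus the A2780 change in edgeR, for 17 members singled out here. Of these, 12 were called in both lines with opposite signs: NDUFS4 (log2 difference −1.99), NDUFS5 (−1.69), NDUFA2 (−1.55), NDUFA4 (−1.46), ATP5MC1 (−1.24), COX6B1 (−1.20), SDHC (−1.16), SDHB (−0.81), NDUFA8 (−0.76), ATP5F1C (−0.70), NDUFS1 (−0.60) and COX7A2L (0.76). The A2780 call of NDUFS1 was lost under 7 of 14 alternatives, that of NDUFA4 under 5 and that of NDUFA8 under 4. Those of COX7A2L, ATP5F1C, ATP5MC1, SDHB and NDUFS5 were also lost when certain single libraries were left out. In OVCAR3 the calls of SDHB and NDUFS1 were lost under some alternatives, as given above. For these 12 a called difference nearly follows from 2 called changes of opposite sign, and the matching share over all genes was not counted. The OVCAR3 side rests on the libraries labelled OVCAR3-DDP. In shNC against the parent NDUFS4, NDUFS5, NDUFA4 and COX6B1 did not pass, while ATP5MC1, SDHB and SDHC were lower and COX7A2L higher. The others had the largest differences each way. NDUFC2 differed by log2 −2.01, with a change in OVCAR3 alone. NDUFA11 differed by 0.85 and changed in A2780 alone. NDUFA4L2 (2.7), COX7A1 (−3.78) and NDUFV2 (−2.53) were under 5 CPM in the 4 groups compared, and COX7A1 lost its call without OVCAR3-DDP replicate 2 (adjusted p 0.0581).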

How the results depend on the processing

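Of 216 single-gene results, 138 were called, and 99 of these were called in the same direction under every alternative that tested them; 0 reversed. Of the 78 uncalled results 32 were called under some alternative, and uncalled values changed sign 83 times while staying uncalled. In OVCAR3, where 5 members were higher, there were 9 with DESeq2, with all 14 libraries, with the compared groups alone and at a mean of at least 5 CPM, 8 with DESeq2 size factors and 12 with upper-quartile scaling. With the compared groups alone A2780 had 5 lower members, sh1 had 0 lower, and sh2 had 9 higher and 13 lower. DESeq2 gave 1 higher and 4 lower for the hairpin mean and 1 higher and 2 lower for sh2. For sh2 there were 2 lower with all 14 libraries, at 5 CPM, without a low-count filter and with upper-quartile scaling. Without that filter 1 member was higher in sh2 than in sh1. Same-numbered replicates showed little shared deviation (correlations −0.0711 to 0.145), so no pairing by number was modelled. With 2 libraries per group this cannot exclude a weak pairing. A replicate block gave 1 lower member in sh1 and 1 higher in sh2 against sh1. In an alternative chosen after seeing the data, the 49 members with under 10% shared exons and at least 5 CPM, OVCAR3 had 1 higher and 27 lower, A2780 1 lower, the line difference 3 above and 31 below 0, the parental lines 14 higher, the hairpin mean 1 higher and 0 lower, sh1 1 lower, sh2 0 lower, shNC against parental 5 higher and 21 lower, and shNC against DDP 13 and 13; fewer members were counted there. Also chosen after seeing the data was scaling by total counts, as CPM is scaled. It gave 14 higher in OVCAR3, 11 above 0 for the line difference, 0 lower for the hairpin mean and for sh1, 5 higher and 0 lower for sh2, 4 higher and 52 lower for shNC against parental, and 39 lower for shNC against DDP. The cause of the other shifts was not tested.

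With each library left out in turn, higher and lower counts ran from 5 to 8 and 36 to 44 in OVCAR3, 7 to 31 and 1 to 4 in A2780, 3 to 8 and 36 to 51 for the line difference, 17 to 27 and 20 to 26 between parental lines, 0 to 7 and 0 to 25 for the hairpin mean, 0 to 6 and 0 to 17 for sh1, 1 to 3 and 0 to 1 for sh2, 0 to 13 and 0 to 2 for sh2 against sh1, 5 to 9 and 22 to 35 for shNC against parental, and 22 to 24 and 14 to 22 for shNC against DDP. With 1 library left in an arm, it is assumed to vary like the other groups. The groups alone are already the whole fit for the line difference and the hairpin mean, as are all 14 libraries for shNC against parental or DDP.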
